A study of Mus musculus with 60 samples.

Results

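The potassium channel subunit genes of the mouse hippocampus are described here, in wild-type (WT) mice and in R6/1 mice, a transgenic model of Huntington's disease. Members were all gene symbols of the deposited expression table that begin with Kcn, go on with 1 or more lower-case letters and end in digits, which gave 92 of 24508 symbols. A further 6 symbols that begin with Kcn (Kcnd3os, Kcne1l, Kcnmb4os1, Kcnmb4os2, Kcnq1ot1 and Kcnrg) have another form and were left out. By class the members are 40 voltage-gated (Kv), 15 inward rectifier (Kir), 14 tandem-pore-domain (K2P) and 8 calcium-activated or related pore-forming subunits, and 15 auxiliary subunits, which attach to a channel without forming its pore.

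The R6/1 transgene holds the start of the human huntingtin gene, up to the end of the first exon, with an expanded CAG repeat, under the human huntingtin promoter. Both genotypes were 30 weeks old, on a mixed background of CBA x C57BL/6, and untreated as far as the labels say. RNA-seq was made from whole hippocampal tissue of 9 WT and 9 R6/1 biological replicates, and whether each replicate was 1 animal is not stated. Lamin B1 ChIP-seq, which maps chromatin at the nuclear lamina, was made from 3 replicates per genotype, each a pool of hippocampi from 5 mice, and the domains are given as 1 list per genotype.

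Potassium channels let potassium leave or enter a cell and so set its resting potential, shape the action potential and limit repetitive firing. Kv channels open on depolarization, Kir channels pass current best near the resting potential, K2P channels carry a steady leak, and calcium-activated channels open after calcium entry and slow firing. Auxiliary subunits set how many channels reach the membrane and how fast they inactivate: KChIP proteins (Kcnip genes) bind Kv4 channels, Kv beta proteins (Kcnab genes) bind Kv1 channels, and the Kcnmb genes encode the beta subunits of the BK channel.

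Reads on genes numbered between 12299434 and 16457022 per WT library and between 13260311 and 16736544 per R6/1 library. WT replicate 1 stood apart: its values for the members lay 0.257 from the WT mean on the log2 scale on average, against 0.111 to 0.194 for the other libraries from the mean of their genotype. Neuron and glia markers also differed between genotypes. All 8 dentate granule neuron markers were lower in R6/1 at an adjusted p under 0.05, with summed RPKM of 104.5 to 157.7 in WT and 55.7 to 67.5 in R6/1, as were 5 of 6 CA1 pyramidal markers (1 was higher) and all 5 tested CA3 pyramidal markers. Of the 8 inhibitory neuron markers 6 were lower, and of the 8 oligodendrocyte markers 5. No marker of these lists was at 0 in all libraries, and none of the 8 choroid plexus markers was called, although their sum ran from 26.1 to 1077 RPKM in WT and from 38.8 to 1747 RPKM in R6/1. In whole tissue, fewer cells of a type and less RNA per cell cannot be told apart, and the part of cell composition in the channel differences was not tested.

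Potassium channel transcripts were lower in R6/1 far more often than higher. The RPKM of the 92 members (reads per kilobase, scaled for depth) summed to 1279 ± 61.8 in WT and 1014 ± 31.8 in R6/1 (n = 9 each, SD), 20.7% lower, and the lowest WT library (1165) lay above the highest R6/1 library (1054). Of the 73 members that averaged 0.5 RPKM or more, 36 were lower and 3 higher at a limma adjusted p under 0.05, and 34 were not called. Thus 49.3% of the tested members were lower, where 23.5% of all 14446 tested genes were, and 4.11% were higher, where 24.8% of all tested genes were. The median log2 fold change (R6/1 minus WT, on log2(RPKM + 0.5), which understates changes of genes with low values) was -0.21 over the tested members and 0.0036 over all tested genes. Of the 34 tested members that were not called, 26 had a negative and 8 a positive log2 fold change, so that 76.5% were negative, where 50.01% of the 7466 genes not called were.

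For 14 tested members (19.2%) all 9 R6/1 libraries lay below all 9 WT libraries, where 6.38% of all tested genes did so. Among them were Kcnip2, Kcnk4, Kcnq5, Kcnk13, Kcnv1, Kcnh3, Kcnip4, Kcnc1, Kcnc2, Kcnn1, Kcnab2, Kcnk10 and Kcnn2. In the other direction, 0 members had all R6/1 libraries above all WT libraries, against 5.5% of all tested genes. A log2 fold change of -0.5 or less was found for 11 called members (15.1%, against 6.28% of all tested genes), and 0 called members reached 0.5 or more. With libraries scaled to their own read totals, 30 members were lower and 3 higher, with 17.5% of all genes lower and 35.4% higher. That scaling moved the share of all calls that were higher from 51.4% to 66.9%, the median of all genes to 0.07 and the median of the members to -0.16.

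**Figure D1:**
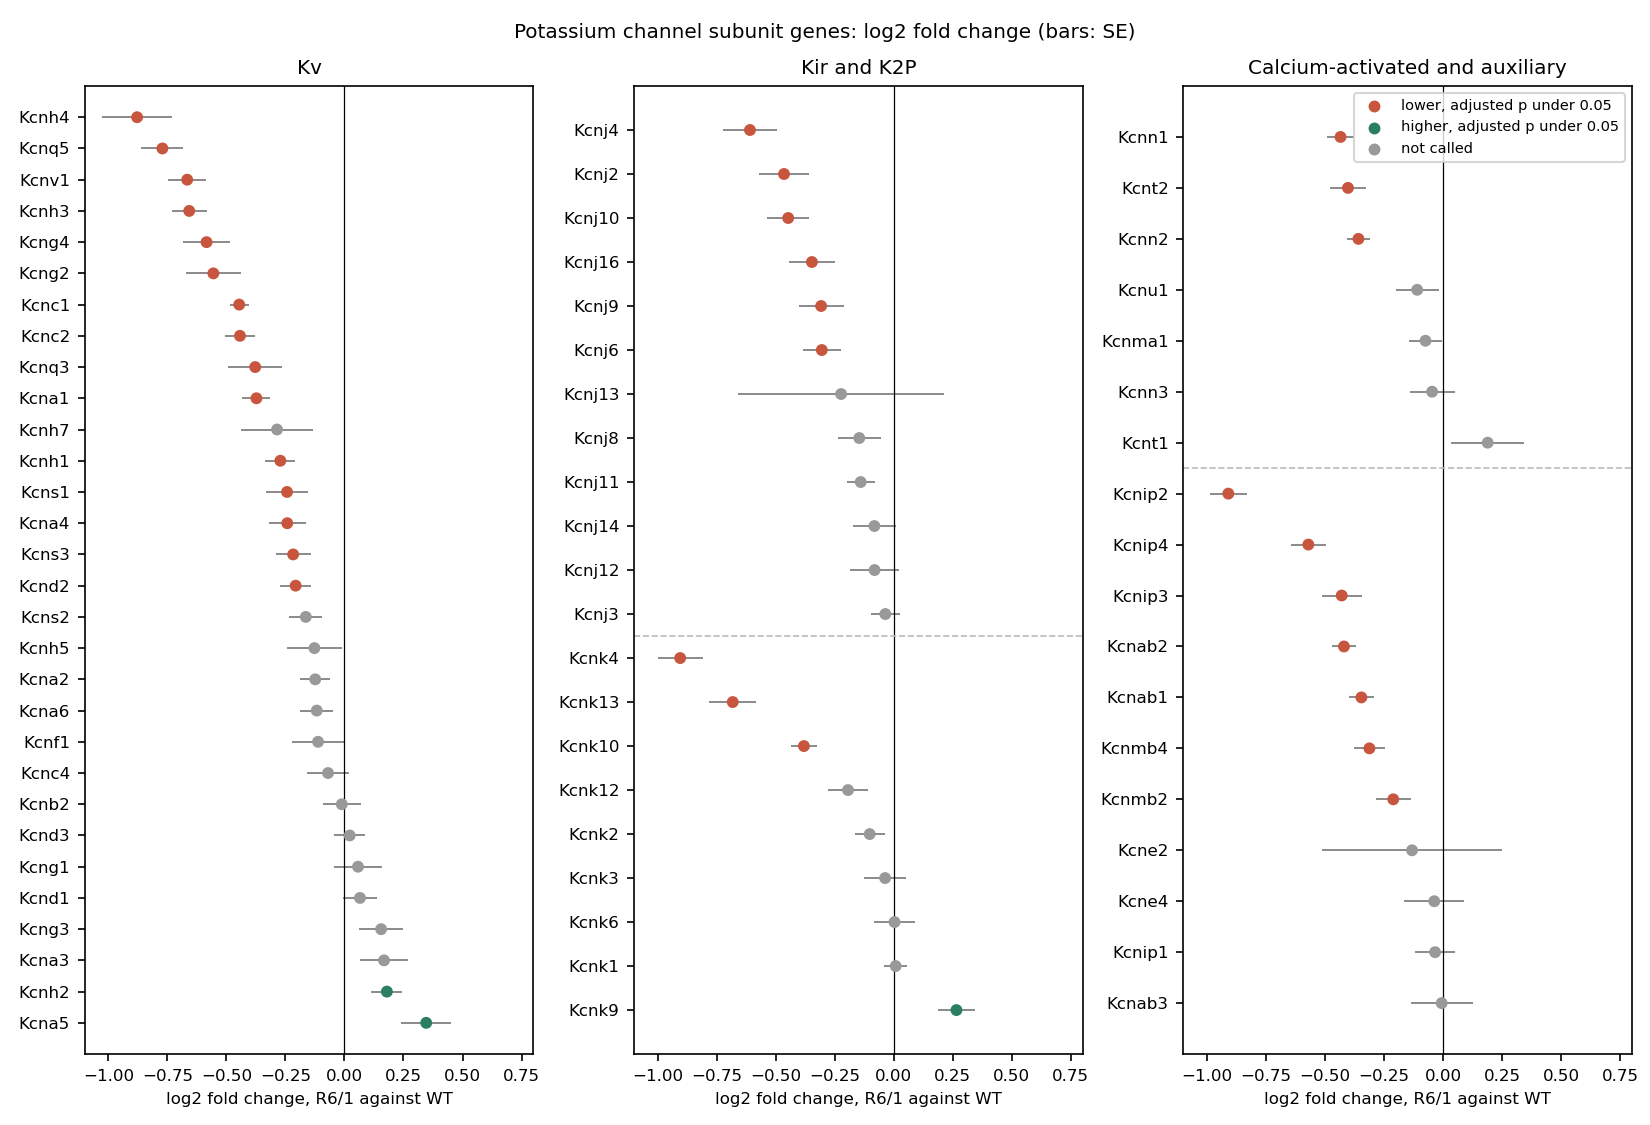
Log2 fold change (R6/1 against WT, on log2(RPKM + 0.5)) of 69 tested members, in 3 panels by class, with a dashed line between classes that share a panel. Points are estimates and bars the standard error; red marks members lower, green the 3 higher and grey those not called at a limma adjusted p under 0.05. All but 11 points lie left of 0, with Kcnip2, Kcnk4 and Kcnh4 farthest left and Kcna5 farthest right.

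Of the 40 Kv members 34 were tested, and 17 were lower, 2 higher and 15 not called (all tested genes: 23.5% lower, 24.8% higher). Their summed RPKM was 531 ± 30.0 in WT and 435 ± 18.7 in R6/1 (n = 9 each, SD), 18.1% lower with no overlap between genotypes (484 to 566 against 405 to 453). The subfamilies were unequal: the EAG-related Kv10 to Kv12 group was 25.4% lower in sum without overlap, whereas Kv1 was 13.6% and Kv4 8.19% lower with overlap.

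Kv7 channels carry the M current, a slow brake on repetitive firing that muscarinic receptors close. Kcnq5 (chromosome 1, 21388484 to 21952023, minus strand; build NCBIM37, the same as mm9, for all gene positions), a Kv7 subunit, had the largest decrease among the Kv members that averaged at least 1 RPKM over the 18 libraries. It ran from 14.7 over 17.2 to 25.5 RPKM in WT and from 8.99 over 10.5 to 11.5 RPKM in R6/1, with no overlap (log2 fold change -0.77, SE 0.089, limma adjusted p 7.67e-07). The WT maximum of Kcnq5 was in WT replicate 1. Kcnq3, a further Kv7 subunit, was also lower, from 17.4 ± 3.04 to 13.4 ± 2.78 RPKM (n = 9 each, SD), with overlapping libraries (log2 fold change -0.38, limma adjusted p 0.0102).

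Kv3 channels open at high voltage and close fast, which lets fast-spiking neurons fire at high rates. Kcnc1 ran from 22.2 over 24.8 to 26.0 RPKM in WT and from 15.8 over 17.8 to 19.5 RPKM in R6/1. It had the smallest scatter for its change of the Kv members named here, with no overlap (log2 fold change -0.45, SE 0.040, limma adjusted p 2.06e-08). Kcnc2 ran from 23.3 over 26.3 to 34.2 RPKM in WT and from 17.4 over 19.5 to 21.8 RPKM in R6/1, without overlap (log2 fold change -0.44, limma adjusted p 8.42e-06). Kcnc4 was not called, at 23.8 ± 3.34 and 22.6 ± 3.32 RPKM (n = 9 each, SD; log2 fold change -0.07, limma adjusted p 0.551). The inhibitory neuron markers, which were lower in R6/1 for 6 of 8, summed to 391 to 489 RPKM in WT and 235.7 to 302 RPKM in R6/1. Sst had the highest mean of them (195.5 RPKM in WT and 86.75 RPKM in R6/1), and Pvalb was lower from 30.2 to 23.2 RPKM. Slc32a1 (24.4 and 25.1 RPKM, limma adjusted p 0.689) and Lhx6 (4.88 and 4.39 RPKM, limma adjusted p 0.0778) were not called. The part of inhibitory neurons in the Kv3 values was not tested.

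Kv1 channels sit mainly on axons and keep firing in check, and Kv4 channels carry the fast A-type current of dendrites. Kcna1 ran from 30.6 over 36.7 to 42.9 RPKM in WT and from 27.0 over 27.8 to 31.4 RPKM in R6/1, where 8 of 9 R6/1 libraries lay below all WT libraries (log2 fold change -0.37, limma adjusted p 3.34e-05). Its usual partner Kcna2 was not called (24.3 ± 1.95 and 22.3 ± 2.55 RPKM, n = 9 each, SD; log2 fold change -0.12, limma adjusted p 0.108). Kcna4, an A-type subunit, was lower by a small amount (8.18 ± 1.10 to 6.82 ± 0.779 RPKM, n = 9 each, SD; limma adjusted p 0.0155). Kcnd2, the main A-type subunit of pyramidal neuron dendrites, ran from 34.3 over 38.6 to 51.2 RPKM in WT and from 31.1 over 33.8 to 38.8 RPKM in R6/1. These libraries overlapped and the change was the smallest among the called decreases (log2 fold change -0.21, SE 0.064, limma adjusted p 0.0117). On the scale of each library's own total, neither Kcna4 (log2 fold change -0.17, limma adjusted p 0.0651) nor Kcnd2 (log2 fold change -0.13, limma adjusted p 0.0764) was called. Kcnd3 had 18.9 ± 1.94 and 19.3 ± 2.00 RPKM (n = 9 each, SD; log2 fold change 0.02, limma adjusted p 0.803).

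Among the members of the ether-a-go-go family, the 3 ELK genes were 38.4% lower in summed RPKM, while the 3 ERG genes together were at 11.1 RPKM in both genotypes. Within that ERG sum, 2 of the 3 genes had a lower mean in R6/1. Kcnh3, which encodes an ELK channel of forebrain neurons, ran from 23.1 over 28.2 to 32.0 RPKM in WT and from 15.1 over 16.99 to 21.3 RPKM in R6/1, with no overlap (log2 fold change -0.66, SE 0.074, limma adjusted p 4.77e-07). Kcnh4, a further ELK gene, was near the filter on low values, from 0.333 over 1.00 to 1.57 RPKM in WT and from 0.221 over 0.325 to 0.480 RPKM in R6/1. This was the largest fall of a Kv member (log2 fold change -0.88, SE 0.148, limma adjusted p 6.09e-05), behind which stood 13 to 89 reads per library, and Kcnh4 was the only tested member whose mean reached 0.5 RPKM in WT but not in R6/1. The lowest WT value of Kcnh4 was that of WT replicate 1, and without that library the log2 fold change was -0.98. Kcnh2, an ERG channel gene, went the other way, from 5.75 over 6.18 to 8.503 RPKM in WT and from 6.35 over 7.52 to 8.20 RPKM in R6/1. All 9 R6/1 libraries of Kcnh2 lay above the WT median, though within the WT range (log2 fold change 0.18, SE 0.066, limma adjusted p 0.0291). The call of Kcnh2 was lost when WT replicate 2, 7 or 9 or R6/1 replicate 2, 4 or 6 was left out, at limma adjusted p values of 0.05035 to 0.0569.

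Kv5, Kv6, Kv8 and Kv9 subunits form no channel alone and modify Kv2 channels. Of their 9 tested genes 5 were lower and 0 higher (all tested genes: 23.5% lower, 24.8% higher). Kcnv1 (Kv8) ran from 10.5 over 14.5 to 17.1 RPKM in WT and from 7.57 over 8.28 to 9.27 RPKM in R6/1, with no overlap (log2 fold change -0.67, SE 0.080, limma adjusted p 1.2e-06). Kcng4 (Kv6) was lower from 2.61 ± 0.542 to 1.57 ± 0.305 RPKM (n = 9 each, SD; log2 fold change -0.58, limma adjusted p 6.73e-05), with 8 of 9 R6/1 libraries below all WT libraries. Kcng2, Kcns1 and Kcns3 were also lower, with log2 fold changes of -0.56, -0.24 and -0.22.

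The largest increase among all tested members was that of Kcna5, a Kv1 subunit better known from heart and smooth muscle. It ran from 0.449 over 0.775 to 0.995 RPKM in WT and from 0.621 over 1.11 to 1.49 RPKM in R6/1, from 16 to 75 reads per library. The genotypes overlapped, with 8 of 9 R6/1 libraries above the WT median (log2 fold change 0.35, SE 0.107, limma adjusted p 0.0109).

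**Figure D2:**
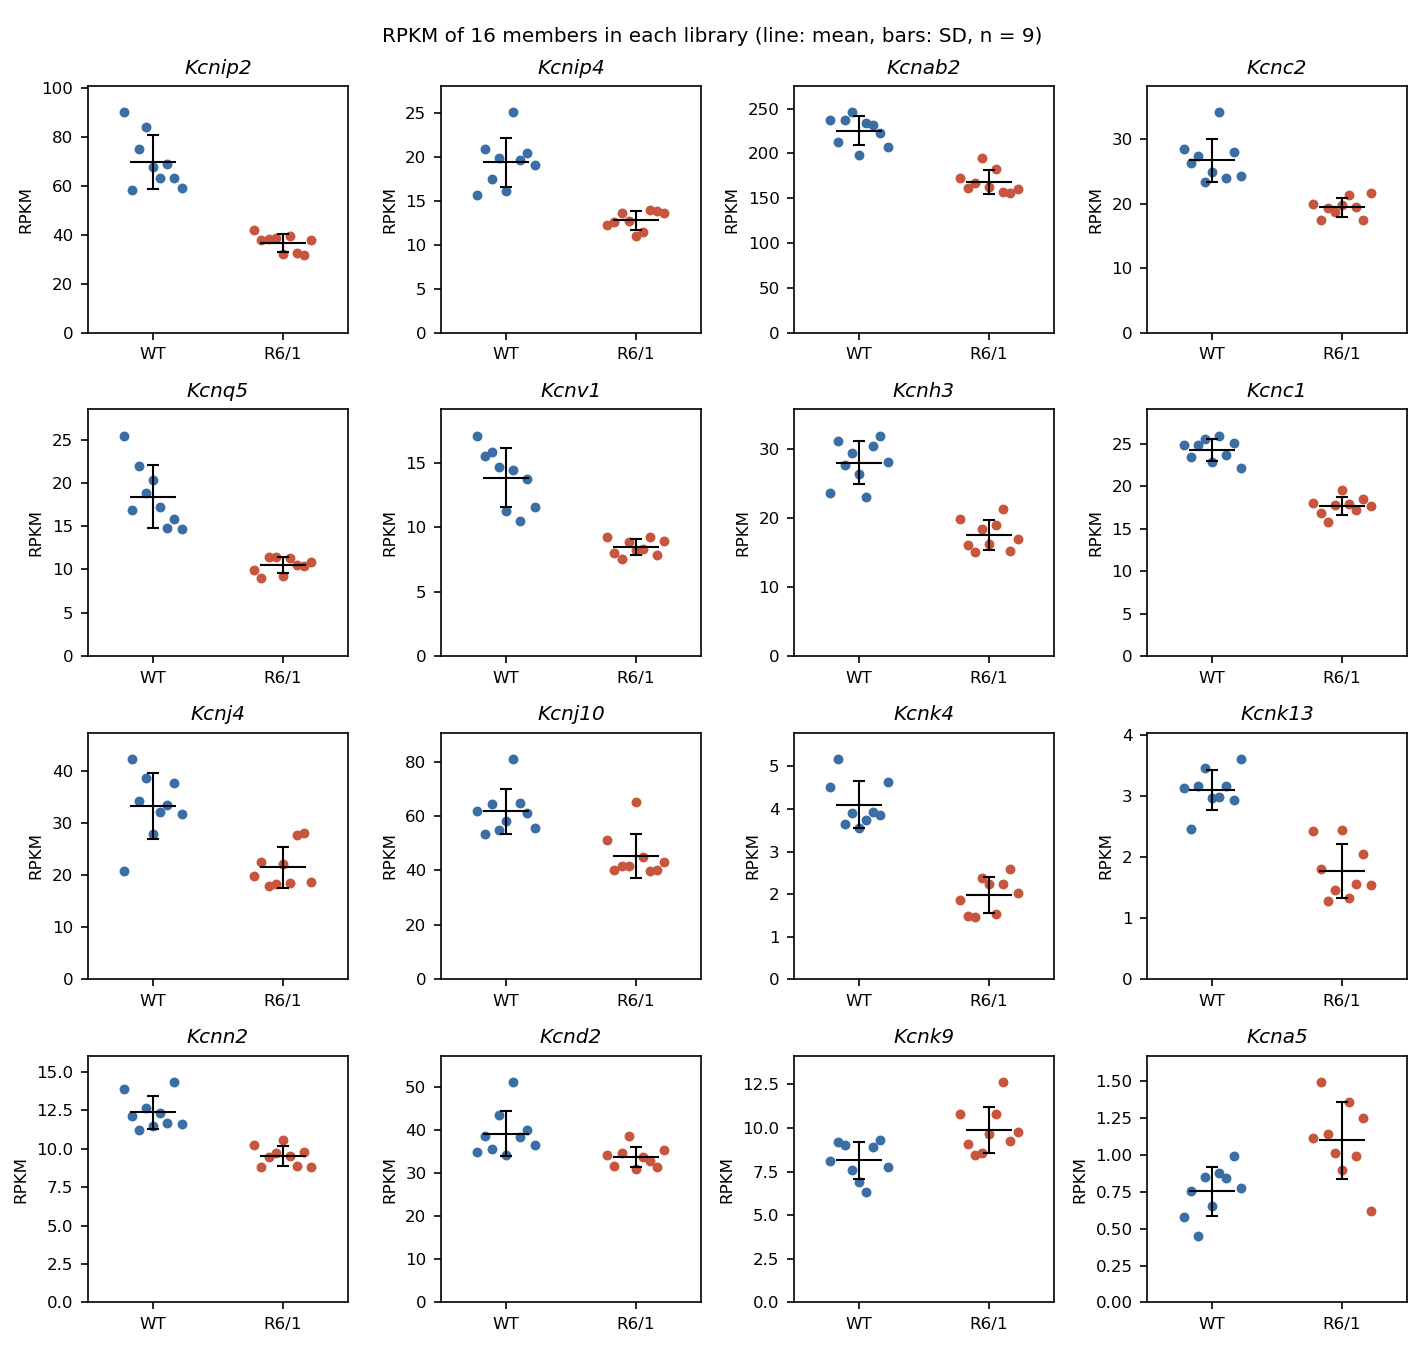
RPKM of 16 members in each library, WT in blue and R6/1 in red, with the mean as a line and the SD as bars (n = 9 each). The points of the genotypes do not overlap for Kcnip2, Kcnip4, Kcnab2, Kcnc2, Kcnq5, Kcnv1, Kcnh3, Kcnc1, Kcnk4, Kcnk13 and Kcnn2; Kcnk9 and Kcna5 lie higher in R6/1 with overlap.

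Of the 15 Kir members 12 were tested, and 6 were lower, 0 higher and 6 not called (all tested genes: 23.5% lower, 24.8% higher). Their sum was 202 ± 13.9 RPKM in WT and 160 ± 10.2 RPKM in R6/1 (n = 9 each, SD), 20.6% lower, and R6/1 replicate 5 (182 RPKM) reached into the WT range (180 to 227 RPKM). Kcnj4 and Kcnj2 encode strong inward rectifiers of the Kir2 group. Kcnj4 ran from 20.8 over 33.5 to 42.3 RPKM in WT and from 17.9 over 19.8 to 28.0 RPKM in R6/1, and the single WT library below 27 RPKM was replicate 1 (log2 fold change -0.61, SE 0.116, limma adjusted p 0.000216). Kcnj2 was lower from 4.36 ± 0.815 to 3.02 ± 0.574 RPKM (n = 9 each, SD; log2 fold change -0.46, limma adjusted p 0.00116).

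Kcnj10 encodes the Kir4.1 channel with which astrocytes take up potassium, and Kcnj16 its Kir5.1 partner. Kcnj10 ran from 53.3 over 60.9 to 81.0 RPKM in WT and from 39.9 over 41.8 to 65.1 RPKM in R6/1, with 8 of 9 R6/1 libraries below all WT libraries and R6/1 replicate 5 within the WT range (log2 fold change -0.45, SE 0.089, limma adjusted p 0.000331). Kcnj16 ran from 6.10 over 8.59 to 13.1 RPKM in WT and from 5.36 over 6.95 to 7.89 RPKM in R6/1, with overlap (log2 fold change -0.35, limma adjusted p 0.00565). Of the 8 astrocyte markers 7 were lower and Aldoc was not called, and their sum was 1146 to 1507 RPKM in WT and 914 to 1177 RPKM in R6/1. Relative to that marker sum Kcnj10 was at 0.0451 ± 0.00607 in WT and 0.0446 ± 0.00466 in R6/1 (n = 9 each, SD), with overlap. Slc1a2 had the highest mean of these markers (509 RPKM in WT and 307 RPKM in R6/1), while Aldoc was at 276 and 282 RPKM. The part of astrocytes in the Kcnj10 values was not tested.

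Kir3 channels open when inhibitory receptors release G protein beta and gamma subunits. Kcnj6 (7.68 ± 1.10 to 6.10 ± 0.699 RPKM, limma adjusted p 0.00366) and Kcnj9 (24.8 ± 3.81 to 19.9 ± 2.94 RPKM, limma adjusted p 0.0109) were lower (n = 9 each, SD), both with overlap. Kcnj9 was not called on the scale of each library's own total (limma adjusted p 0.0561). Kcnj3, their most abundant partner, ran from 33.3 over 39.0 to 49.1 RPKM in WT and from 33.8 over 38.7 to 43.6 RPKM in R6/1, a difference within the spread (log2 fold change -0.04, limma adjusted p 0.665). The pore subunits of ATP-sensitive channels did not pass the test: Kcnj11 was at 13.96 ± 1.38 and 12.6 ± 1.04 RPKM (limma adjusted p 0.0572) and Kcnj8 at 1.33 ± 0.250 and 1.15 ± 0.201 RPKM (limma adjusted p 0.194; n = 9 each, SD).

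Of the 14 K2P members 9 were tested, and 3 were lower, 1 higher and 5 not called (all tested genes: 23.5% lower, 24.8% higher). The class sum was 74.8 ± 4.43 RPKM in WT and 70.9 ± 2.52 RPKM in R6/1 (n = 9 each, SD), 5.16% lower with overlap, while single members changed far more. Kcnk4 encodes TRAAK, a leak channel opened by membrane stretch and lipids (chromosome 19, 7000200 to 7009005, minus strand). It ran from 3.55 over 3.91 to 5.18 RPKM in WT and from 1.46 over 2.01 to 2.59 RPKM in R6/1, so that the R6/1 mean was 51.9% lower and no library overlapped (log2 fold change -0.90, SE 0.095, limma adjusted p 1.98e-07). Of its close relatives, Kcnk10 ran from 1.83 over 2.08 to 2.35 RPKM in WT and from 1.34 over 1.46 to 1.67 RPKM in R6/1, without overlap (log2 fold change -0.38, limma adjusted p 9.8e-06). Kcnk2, which encodes TREK-type channels opened by the same stimuli, was not called (12.7 ± 1.54 and 11.7 ± 0.819 RPKM, n = 9 each, SD; limma adjusted p 0.194). Kcnk4 therefore made up 21.8% ± 2.48 of the summed RPKM of Kcnk2, Kcnk4 and Kcnk10 in WT and 13.0% ± 2.33 in R6/1 (n = 9 each, SD), and these shares did not overlap.

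Kcnk13, a THIK channel gene known from microglia, ran from 2.46 over 3.13 to 3.61 RPKM in WT and from 1.28 over 1.57 to 2.45 RPKM in R6/1. The highest R6/1 library lay just below the lowest WT library (log2 fold change -0.68, SE 0.099, limma adjusted p 1.1e-05). Of the 7 microglia markers 3 (Cx3cr1, P2ry12 and Aif1) were lower and 4 not called, where 23.5% of all tested genes were lower. The sum of these 7 markers overlapped between genotypes (137 to 197 RPKM in WT and 111 to 173 RPKM in R6/1). The part of microglia in the Kcnk13 values was not tested. Kcnk9, which encodes an acid-sensitive TASK channel, was the only K2P member higher in R6/1: it ran from 6.36 over 8.13 to 9.34 RPKM in WT and from 8.45 over 9.64 to 12.6 RPKM in R6/1. All 9 R6/1 libraries lay above the WT median, with overlap (log2 fold change 0.27, SE 0.080, limma adjusted p 0.00956). The related Kcnk3 was not called (4.05 ± 0.766 and 3.89 ± 0.368 RPKM, n = 9 each, SD; limma adjusted p 0.762). Kcnk1, the most abundant K2P member, had 36.0 ± 2.60 and 36.2 ± 2.72 RPKM (n = 9 each, SD; log2 fold change 0.01, limma adjusted p 0.907).

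Of the 8 calcium-activated and related members 7 were tested. Among these 7, 3 were lower, 0 higher and 4 not called (all tested genes: 23.5% lower, 24.8% higher). The SK channel genes Kcnn1 and Kcnn2, whose channels follow bursts of spikes with an afterhyperpolarization, were lower without overlap. Kcnn2 ran from 11.3 over 12.2 to 14.3 RPKM in WT and from 8.79 over 9.53 to 10.6 RPKM in R6/1 (log2 fold change -0.36, SE 0.050, limma adjusted p 7.86e-06). Kcnn1 ran from 4.20 over 4.62 to 5.43 RPKM in WT and from 2.84 over 3.30 to 3.79 RPKM in R6/1 (log2 fold change -0.43, limma adjusted p 3.57e-06). Kcnn3 was at 3.06 ± 0.474 and 2.96 ± 0.536 RPKM (n = 9 each, SD; limma adjusted p 0.717). Kcnma1, the pore of the BK channel, which calcium and voltage open together, ran from 14.2 over 15.9 to 17.8 RPKM in WT and from 12.2 over 15.6 to 18.1 RPKM in R6/1, a difference within the spread (log2 fold change -0.07, limma adjusted p 0.385). Kcnt2 and Kcnt1 belong to the same gene family but encode sodium-activated channels. Kcnt2 was lower from 6.76 ± 0.805 to 4.99 ± 0.623 RPKM (n = 9 each, SD; log2 fold change -0.40, limma adjusted p 0.000173). Kcnt1 was not called, with 8.19 ± 2.50 RPKM in WT, where replicate 1 was lowest at 3.44 RPKM, and 9.00 ± 0.928 RPKM in R6/1 (n = 9 each, SD; limma adjusted p 0.331).

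The 15 auxiliary members had the largest loss in summed RPKM of the classes, 419.5 ± 25.2 RPKM in WT and 302 ± 14.7 RPKM in R6/1 (n = 9 each, SD), 27.9% lower with no overlap. Of the 11 tested, 7 were lower, 0 higher and 4 not called (all tested genes: 23.5% lower, 24.8% higher). All 15 had a lower mean RPKM in R6/1, though 4 were not tested, and Kcne1 and Kcnmb3 had 3 reads each over the 9 libraries of either genotype. The 11 tested auxiliary members all had a negative log2 fold change, where 49.3% of all 14446 tested genes did. Among these 11 were members without a called difference, such as Kcnab3 (log2 fold change -0.0059). On the scale of each library's own total, Kcnab3 (0.064) and Kcnip1 (0.033) had a positive log2 fold change.

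Kcnip2 (chromosome 19, 45866329 to 45890551, minus strand) encodes KChIP2, a calcium-binding protein that brings Kv4 channels to the membrane. On the log2(RPKM + 0.5) scale it showed the largest decrease of any tested member, narrowly ahead of Kcnk4. It ran from 58.2 over 67.8 to 89.9 RPKM in WT and from 31.9 over 37.9 to 42.0 RPKM in R6/1. A wide gap separated the genotypes and the mean was 47.4% lower (log2 fold change -0.91, SE 0.080, limma adjusted p 1.74e-08). In percent of the WT mean, Kcnk4 (51.9% lower) and the weakly expressed Kcnh4 (70.0% lower) fell further than Kcnip2. Kcnip4 ran from 15.6 over 19.6 to 25.0 RPKM in WT and from 11.02 over 12.7 to 13.98 RPKM in R6/1, also without overlap (log2 fold change -0.57, SE 0.073, limma adjusted p 2.43e-06). Kcnip3, whose product also acts as a calcium-regulated transcription factor under the name DREAM, was lower with overlap (22.9 ± 3.39 to 16.8 ± 2.09 RPKM, n = 9 each, SD; log2 fold change -0.43, limma adjusted p 0.000331). Kcnip1 was at 5.15 ± 1.03 and 4.96 ± 0.381 RPKM (n = 9 each, SD; log2 fold change -0.03, limma adjusted p 0.766). The 4 KChIP genes together were 39.2% lower (117 ± 8.04 to 71.3 ± 2.40 RPKM, n = 9 each, SD), while the 3 Kv4 genes they serve were 8.19% lower. The ratio of summed KChIP to summed Kv4 RPKM ran from 1.48 to 2.13 in WT and from 1.14 to 1.45 in R6/1, without overlap.

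Kv beta subunits resemble oxidoreductase enzymes and bind the cytoplasmic side of Kv1 channels. Kcnab2, the member with the highest RPKM of all, ran from 198 over 231 to 246 RPKM in WT and from 156 over 163 to 195 RPKM in R6/1, just short of overlap (log2 fold change -0.42, SE 0.049, limma adjusted p 8.37e-07). Kcnab1 ran from 39.3 over 46.2 to 53.2 RPKM in WT and from 33.3 over 36.8 to 40.8 RPKM in R6/1, with 8 of 9 R6/1 libraries below all WT libraries (log2 fold change -0.35, limma adjusted p 1.72e-05). Kcnab3 was not called (11.5 ± 2.74 and 11.1 ± 1.33 RPKM, n = 9 each, SD; limma adjusted p 0.976). Kcnmb4, the beta subunit of neuronal BK channels, was lower from 15.5 ± 2.01 to 12.3 ± 0.913 RPKM (n = 9 each, SD; log2 fold change -0.31, limma adjusted p 0.000593), and the weakly expressed Kcnmb2 from 1.66 to 1.36 RPKM (limma adjusted p 0.0231).

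**Figure D3:**
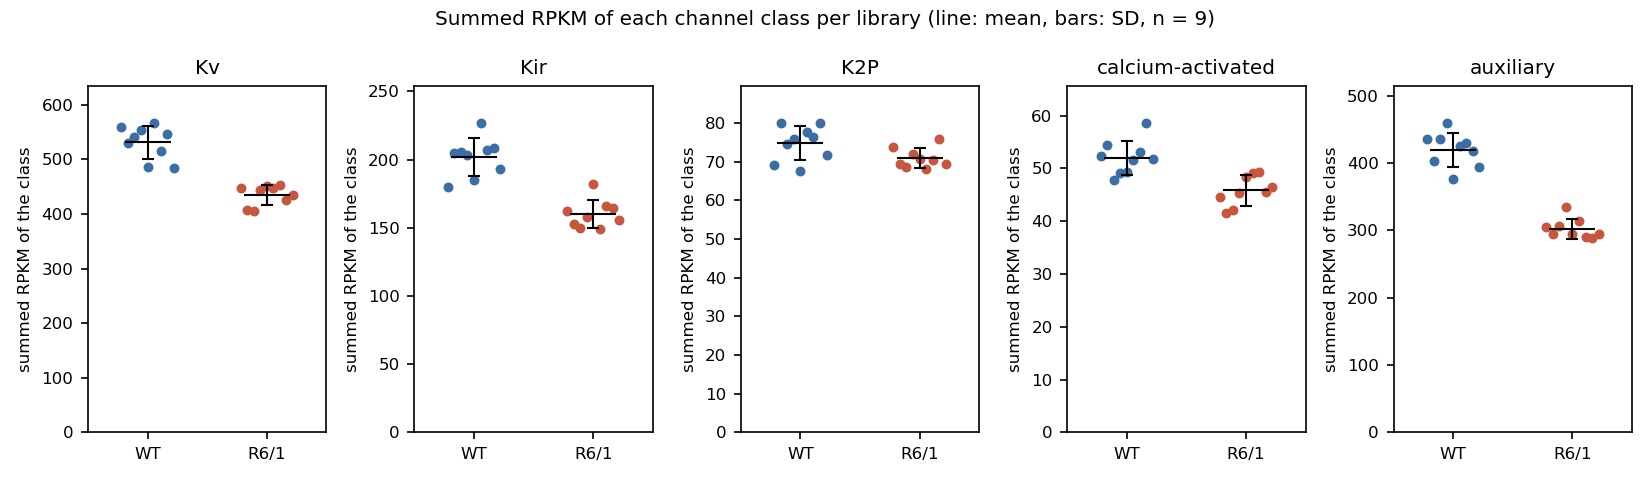
Summed RPKM of each class in each library, WT in blue and R6/1 in red, with the mean as a line and the SD as bars (n = 9 each; each axis starts at 0). The Kv and auxiliary sums of the genotypes do not overlap, while the Kir, K2P and calcium-activated sums do.

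The members with the largest decrease and the largest increase are shown by the 250 bases before their start, since these members moved most. The sequences are from RefSeq (build GRCm38.p6, not the build of the gene positions above), 5′ to 3′ on the gene's strand, with GC boxes (GGGCGG or its complement CCGCCC) in capitals; 67 of the 92 members had a window in that table. Kcnip2 lies at chr19:45816064-45816313, Kcnk4 at chr19:6934516-6934765 and Kcna5 at chr6:126535556-126535805, all on the minus strand.
Kcnip2: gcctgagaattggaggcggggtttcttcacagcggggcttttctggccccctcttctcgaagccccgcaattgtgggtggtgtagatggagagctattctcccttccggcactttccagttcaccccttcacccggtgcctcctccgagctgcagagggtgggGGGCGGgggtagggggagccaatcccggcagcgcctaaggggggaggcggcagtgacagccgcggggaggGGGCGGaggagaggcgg
Kcnk4: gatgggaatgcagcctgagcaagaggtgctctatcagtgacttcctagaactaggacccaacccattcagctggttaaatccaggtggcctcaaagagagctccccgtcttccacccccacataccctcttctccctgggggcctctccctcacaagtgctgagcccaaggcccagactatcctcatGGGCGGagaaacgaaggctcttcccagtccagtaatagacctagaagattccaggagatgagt
Kcna5: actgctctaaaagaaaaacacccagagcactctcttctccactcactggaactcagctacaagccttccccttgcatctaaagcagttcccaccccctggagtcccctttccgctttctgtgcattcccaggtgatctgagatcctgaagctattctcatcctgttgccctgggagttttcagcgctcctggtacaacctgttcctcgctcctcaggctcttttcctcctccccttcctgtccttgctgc
The Kcnip2 sequence holds 2 GC boxes, that of Kcnk4 holds 1 and that of Kcna5 holds 0. In windows of 300 bases (250 before and 50 after the start), a GC box on either strand was in 44 of 92 member windows (47.8%), against 35.7% of all 32851 windows. It was in 23 of 46 windows of lower members (50%) and in 12 of 27 windows of members not called (44.4%). The TATA box (TATAAA, both strands) was in 5.43% of member windows and 13.6% of all windows, and the E box (CACGTG) in 7.61% and 7.15%. The cAMP response element (TGACGTCA) was in 0 member windows and in 1.79% of all windows. None of these motifs contains another, and a match is a description of the sequence only.

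On the log2(RPKM + 0.5) scale, Kcnj13 and Kcne2 had the largest spread of the 73 tested members within each genotype (SD 1.14 and 0.98 in WT, 0.93 and 0.82 in R6/1, n = 9 each). Kcnj13 encodes Kir7.1 and Kcne2 a small auxiliary subunit, both known from the choroid plexus epithelium. Kcnj13 ran from 0.270 over 1.34 to 5.94 RPKM in WT and from 0.295 over 1.53 to 5.68 RPKM in R6/1, and Kcne2 from 0 over 0.624 to 2.19 RPKM in WT and from 0.0858 over 0.318 to 3.44 RPKM in R6/1. Neither was called (limma adjusted p 0.703 and 0.803). The 9 libraries with the highest sum of the 8 choroid plexus markers were also the 9 with the highest Kcnj13, and 7 of them were among the 9 highest for Kcne2. With the choroid plexus markers as a covariate in the fit of all genes, Kcnj13 was called lower (log2 fold change -0.40, limma adjusted p 0.0259), and its adjusted p lay between 0.0259 and 0.971 among the limma alternatives.

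**Figure D4:**
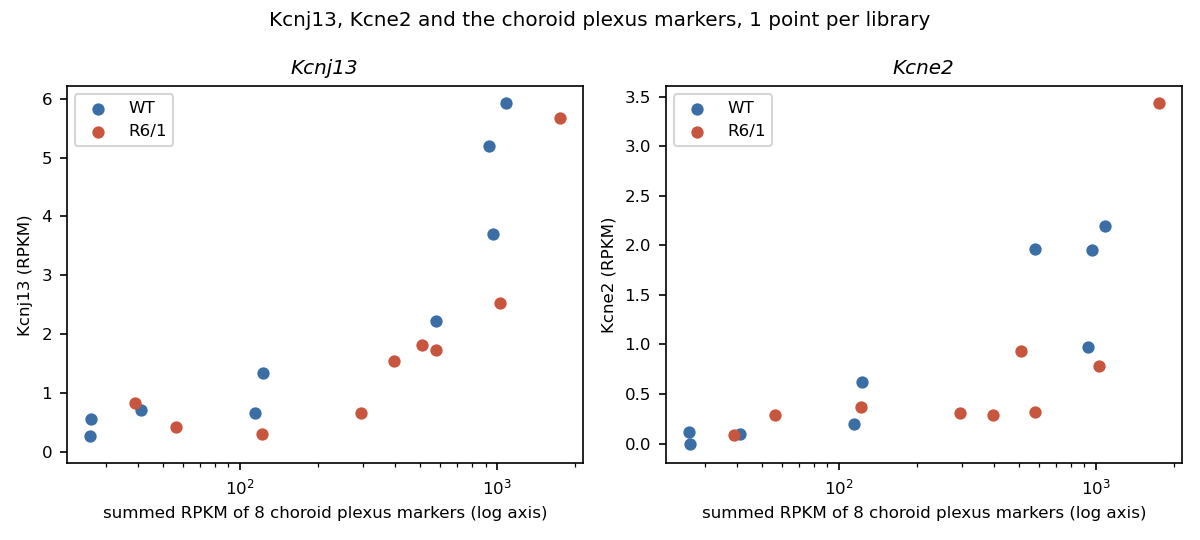
RPKM of Kcnj13 (left) and Kcne2 (right) against the summed RPKM of 8 choroid plexus markers (log axis), 1 point per library, WT in blue and R6/1 in red. The 4 WT and R6/1 libraries with marker sums from 925 to 1077 RPKM have Kcnj13 between 2.54 and 5.94 RPKM, and those with the lowest sums lie near 0 in both panels.

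The 19 members under the filter on low values had means of at most 0.469 RPKM in WT and 0.401 RPKM in R6/1. They were Kcna7, Kcna10, Kcne1, Kcne3, Kcnh6, Kcnh8, Kcnj1, Kcnj5, Kcnj15, Kcnk5, Kcnk7, Kcnk15, Kcnk16, Kcnk18, Kcnmb1, Kcnmb3, Kcnn4, Kcnq1 and Kcnv2, and Kcnk16 was listed at 0 in all 18 libraries. With no filter 91 members were tested, and 39 were lower and 3 higher, where 17.7% of all genes were lower and 17.6% higher. Among the low members, Kcnk5 (0.242 and 0.127 RPKM, limma adjusted p 0.00192), Kcnmb1 (0.417 and 0.243 RPKM, limma adjusted p 0.00296) and Kcnn4 (0.143 and 0.0683 RPKM, limma adjusted p 0.0281) were lower in that fit, from 20 to 225 reads over the 9 libraries of a genotype. By the authors' DESeq2 adjusted p under 0.05, Kcnk5 (0.00316) and Kcnmb1 (0.000974) were also lower, but Kcnn4 (0.0746) was not called.

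**Figure D5:**
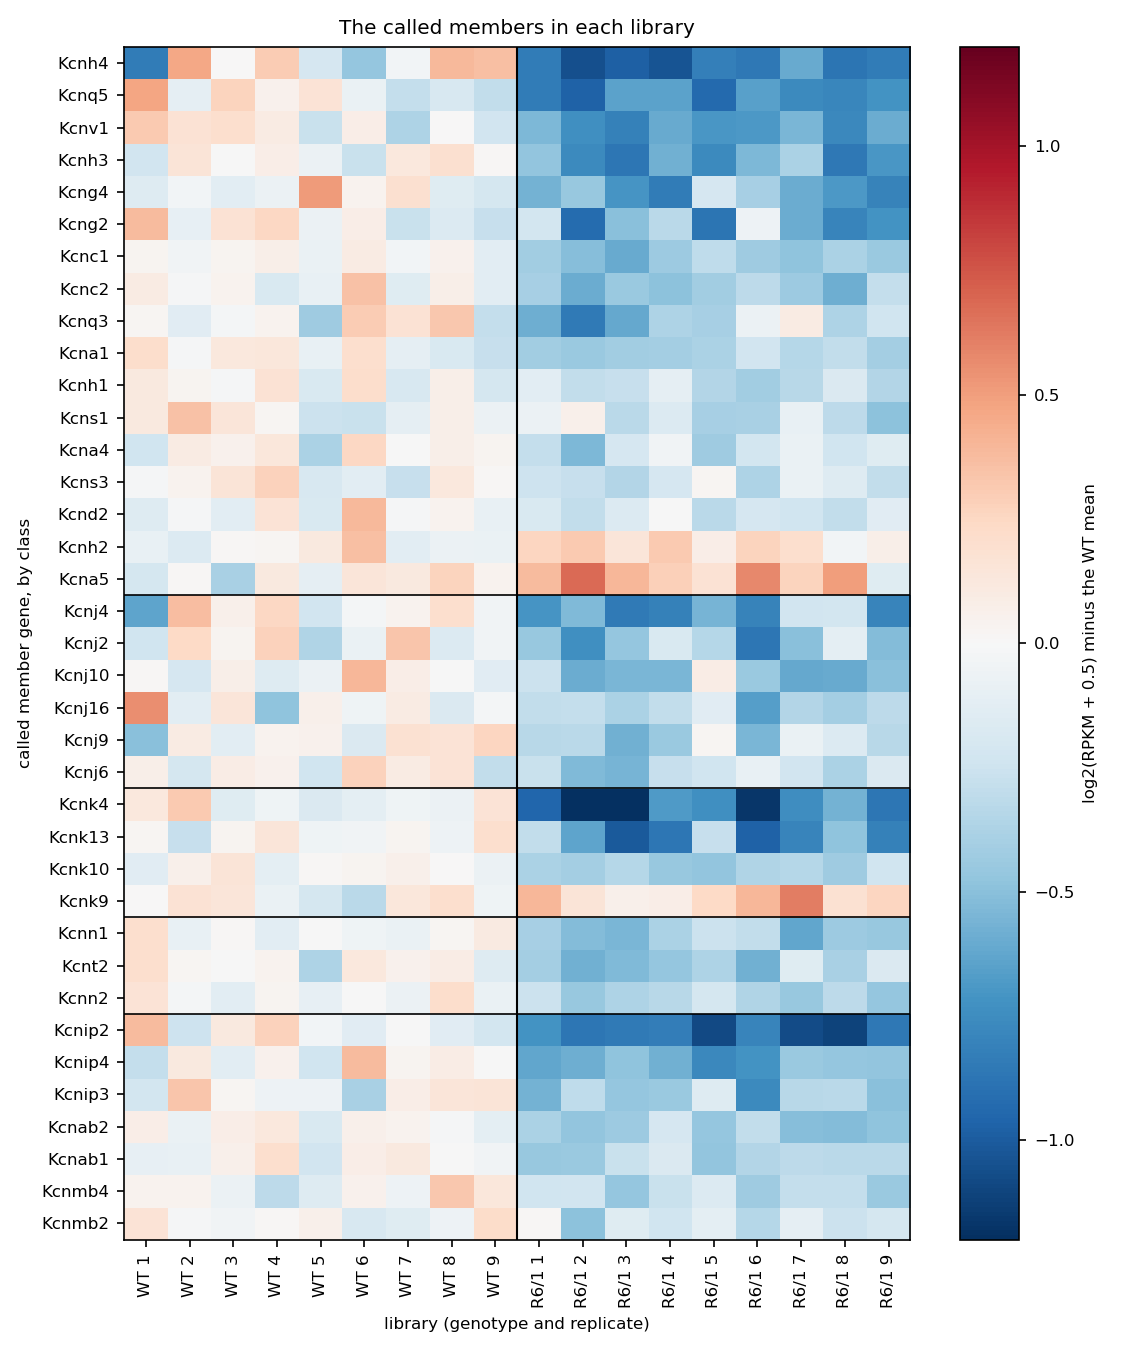
Log2(RPKM + 0.5) minus the WT mean (color, blue below and red above) of 37 called members in each library, ordered by class from Kv at the top to auxiliary at the bottom. The lower members are blue across most R6/1 libraries, and Kcnh2, Kcna5 and Kcnk9 are red there; WT replicate 1 is dark blue for Kcnh4 and Kcnj4 and red for Kcnq5.

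Leaving out WT replicate 1, the library that stood apart, gave 39 lower and 3 higher members (24.3% and 25.4% of all genes). Of the 39 called members, 32 were called under all limma alternatives that tested them. The exceptions besides those given above were Kcns1, Kcns3 and Kcnmb2, which were not called after scaling to the library's own total or after quantile normalization; Kcns1 was also not called without WT replicate 2 or R6/1 replicate 9. The authors' deposited table lists 40 members as lower and 3 as higher among 86 with an adjusted p, against 20.4% and 20.0% of all its genes. In the authors' deposited table Kcnip2 has a log2 fold change of -0.90 and Kcnk4 of -0.99, and its 3 higher members are Kcna5, Kcnh2 and Kcnk9 as here. At an unadjusted limma p under 0.05, the Kir, calcium-activated, auxiliary and modifier members higher in R6/1 likewise numbered 0, where 28.4% of all tested genes were higher at that threshold.

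Of 45 genes of the channels' complexes and signalling that lie outside the Kcn symbols, 43 were tested. Of these 43 genes 20 were lower, 10 higher and 13 not called, where 23.5% of all tested genes were lower and 24.8% higher. Their median log2 fold change was -0.09. Of the BK gamma subunit genes, Lrrc55 was lower from 6.73 ± 2.02 to 3.80 ± 0.786 RPKM (limma adjusted p 0.000294, log2 fold change -0.73, n = 9 each, SD). Lrrc26 was lower from 0.907 ± 0.176 to 0.268 ± 0.0926 RPKM (limma adjusted p 3.02e-07, log2 fold change -0.87, n = 9 each, SD), and its mean reached 0.5 RPKM in WT only. Lrrc38 (0.501 RPKM in WT and 0.487 RPKM in R6/1) and Lrrc52 (0.0186 and 0.0430 RPKM) were under the filter and not tested. Of 6 Kv7 partners 4 were lower, led by Chrm1, the muscarinic receptor that closes Kv7 channels, from 44.4 ± 3.69 to 28.1 ± 1.79 RPKM (n = 9 each, SD; log2 fold change -0.65, limma adjusted p 1.61e-09). In G protein signalling to Kir3, 7 of 15 genes were lower and 5 higher, among the latter Gng3, a G protein gamma subunit, from 75.9 ± 4.02 to 109 ± 6.69 RPKM (n = 9 each, SD; log2 fold change 0.52, limma adjusted p 2.36e-09). Of 9 genes that cluster Kv1 channels on axons 4 were lower and 3 higher, among the latter Cntn2 (19.7 ± 0.933 to 23.9 ± 2.74 RPKM, n = 9 each, SD; limma adjusted p 0.00056). Of the 4 hyperpolarization-activated channel genes, Hcn3 was higher (3.51 ± 0.427 to 4.71 ± 0.578 RPKM, n = 9 each, SD; limma adjusted p 0.000294) and 3 were not called.

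Some members lie next to each other in the genome. Kcnj9 and Kcnj10 (chromosome 1, 11.9 kb apart, on opposite strands) were both lower, as were Kcnj16 and Kcnj2 (chromosome 11, 38.2 kb apart, same strand). On chromosome 6, Kcna5 was higher, its neighbour Kcna1 at 101 kb lower, and Kcna6, 62.5 kb further, not called. Neighbouring members thus shared a direction at some places and not at others.

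All 92 members were matched to the annotation of build NCBIM37. The start of 13 members (14.1%) lay in a WT lamin B1 domain, against 19.7% of all 22267 matched genes, and that of 11 (11.96%) in an R6/1 domain, against 15.5%. Kcna4, Kcnb2, Kcnc2, Kcnd2, Kcnh7, Kcnh8, Kcnip4, Kcnj3, Kcns3, Kcnt2 and Kcnv1 were in a domain of both genotypes. Kcnq5 and Kcnab1 were in a WT domain only, which is 2.17% of the members against 5.14% of all matched genes. In an R6/1 domain only there were 0 members, against 0.921% of all matched genes. The start of Kcnq5 lay 0.470 Mb inside the border of a WT domain on chromosome 1 (3034001 to 22422000). The start of Kcnab1 lay 5.82 Mb from the nearest border of a WT domain on chromosome 3 (59089001 to 78699000). In the R6/1 list the nearest domain border was just 0.015 Mb from the start of Kcnab1, and 1.16 Mb from that of Kcnq5. Whether Kcnab1 counts as in a WT domain only thus depends on where that R6/1 border is drawn. The median log2 fold change was -0.26 over the 10 tested members in domains of both genotypes and -0.16 over the 61 tested members in no domain. Among these 10 were Kcnv1 at -0.67 and Kcnj3 at -0.04. The difference between the medians was not tested, and medians of all genes in these domain classes were not computed. With 1 list per genotype, the domain counts have no replicate spread.

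The library kit keeps strand, but whether the counting used it is not given in the sources used here. Annotated genes on the opposite strand overlap Kcnab1, Kcnab2, Kcnip3, Kcnip4, Kcnh2, Kcnj6, Kcnk13, Kcnmb4, Kcnn2 and Kcnq5 among the called members, so without strand the reads of each such pair cannot be told apart. Kcnip1 and Kcnmb1 overlap each other in the same way.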

How the data were processed

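RNA-seq (9 WT and 9 R6/1 hippocampus libraries) and lamin B1 ChIP-seq domains (1 list per genotype) were used; the ATAC-seq data were not used here. Groups are the genotypes given by the labels, and the number of per-sample columns left out was 0. The RNA libraries were made from messenger RNA with a stranded kit, per the labels' protocols. TopHat, DESeq2 and build mm9 are named for the RNA-seq and Bowtie and mm9 for the ChIP-seq, without versions, per the submitters' processing notes; the counter and the annotation are not given in the sources used here.

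The authors deposited RPKM for 24508 symbols. After rescaling each gene's RPKM to its mean normalized count, between 99.83% and 99.88% of the values examined in a library were whole multiples of 1 read within 0.05. Values of 0 and those of genes with many reads were left out of that share. The whole multiples show scaling by size factors and gave the reads per library. By counting error alone, a value of 0 in a library allows up to 3 reads. The authors' deposited table gives a mean normalized count (a depth-scaled signal), a log2 fold change, a test score and raw and adjusted p-values per gene; 6113 genes have no adjusted p there. The deposited domain lists give 1 score per domain, used here just to order the domains of a list; per the file names, they come from EDD on lamin B1 against input, and how replicates were combined is not given in the sources used here. Domains end at the last base of NCBIM37 chromosomes for 3 WT and 4 R6/1 domains and pass it for 0.

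Each gene was tested with limma 3.58.1 (R 4.3.3), lmFit and eBayes with trend, on log2(RPKM + 0.5), two-sided, over the 14446 genes that averaged 0.5 RPKM or more, with p-values adjusted by Benjamini-Hochberg and called under 0.05. The script was tested on simulated data. Genes were matched to the NCBIM37 annotation by symbol or RefSeq synonym (90.9% of symbols). Within each class, the rule named the up to 4 largest called increases and decreases of at least 1 RPKM and the 3 members highest in WT, plus 32 members whatever their change. Kcna5, Kcnh4, Kcng2, Kcnj9, Kcnk3, Kcnk5, Kcnc4, Kcnd3, Kcnab3, Kcnmb1, Kcnmb2, Kcnn4, Kcns1 and Kcns3 fall outside it and were named after their values were seen. Results of some single members are not reported here. The members and all gene lists were chosen with earlier results of these data known. The marker and partner lists were written from general knowledge; results of the remaining marker lists were 2 of 5 lower for oligodendrocyte precursors, 0 of 6 for endothelial cells, 2 of 8 for pericytes and smooth muscle and 2 of 5 for ependyma, with 0 higher. Alternatives were other pseudocounts, filters, scalings, variance models, a replicate block, a choroid plexus covariate, leaving out each library, and other domain rules.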

Additional observations from a re-analysis of the deposited data

Results flagged for a closer look

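In 92 groups examined (the 9 libraries of a genotype, for each member named by the rule and reported here, and each class sum), 9 had 1 library whose gap to the nearest of the others as a share of the group's range exceeded Dixon's critical value, where chance gives about 4.6. In WT replicate 6, Kcnc2 was at 34.2 RPKM (next library 28.6), Kcnh2 at 8.503 (next 7.11) and Kcnj10 at 81.0 (next 64.9). WT replicate 5 had 3.87 RPKM of Kcng4 (next 3.02), and WT replicate 2 had 7.499 RPKM of Kcnip1 (next 5.72). In R6/1 replicate 5, Kcnj10 was at 65.1 RPKM (next 51.3) and the sum of the Kir members at 182 RPKM (next 165.7). R6/1 replicate 3, the library with the highest choroid plexus marker sum (1747 RPKM), had 5.68 RPKM of Kcnj13 (next 2.54) and 3.44 RPKM of Kcne2 (next 0.936).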

How the results depend on the processing

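The counts of members stayed within 1.5 times their value under every alternative run: 2 to 3 higher and 30 to 40 lower. Leaving out each library in turn gave 2 to 3 higher and 36 to 39 lower members, and 3425 to 3671 higher and 3237 to 3504 lower genes among all tested. The count of members with a start in a domain was 10 to 13 in WT and 8 to 11 in R6/1. Of the 41 members named by the rule and reported here, values under 31 settings (1268 in all) kept direction and call in 1237 cases, lost the call in 8, gained it in 8 and changed sign in 15, each of these in a member that was not called. Scaling to the library's own total of reads gave log2 fold changes of 0.033 for Kcnip1, 0.037 for Kcnj3 and 0.016 for Kcnn3. Kcne2 was at 0.21 with voom on the recovered reads, 0.079 with library weights, and 0.0056, 0.023 and 0.0065 without WT replicate 1, 3 and 6. Kcnip1 was at 0.031 without WT replicate 2 and Kcnj3 at 0.0019 without WT replicate 6. Kcnk1 was at -0.008498 and -0.00999 without WT replicate 5 and 9, and at -0.00276, -0.001516 and -0.0122 without R6/1 replicate 1, 4 and 8. Over all leave-one-out fits Kcne2 ran from -0.37 to 0.023, Kcnip1 from -0.065 to 0.031, Kcnj3 from -0.068 to 0.0019 and Kcnk1 from -0.0122 to 0.030. The cause was not tested. Kcnj11 was called lower with library weights and without WT replicate 1, 5 or 9 or R6/1 replicate 5 or 8 (limma adjusted p 0.0203 to 0.0489), and Kcna2 without R6/1 replicate 5 (limma adjusted p 0.0387).

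The labels give both genotypes the same replicate numbers. Their deviations correlated above 0.1 for 3 of 9 pairs (-0.05 to 0.24), and 2 of 9 libraries correlated best with their own number. These values show no clear pairing by number but cannot exclude a weak one. With the replicate block 37 members were lower and 3 higher. At this depth, members with few reads, such as Kcnk16 or Kcnk18, cannot show a difference.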
